A study of Mus musculus with 25 samples.

Results

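The genes described here are 38 genes of the cell division cycle, chosen by name as a working set of proliferation genes and read from every bead probe that carries one of these symbols, with older symbols matched by Entrez number. They cover the licensing and firing of replication origins, the supply of nucleotides for DNA synthesis, the cyclins and kinases that start mitosis, the proteins of the chromosome and kinetochore, and the spindle and its disassembly. Of the 38 genes, 34 had a probe, with 58 probes among 25697 in all, and 30 were tested among 11227 genes. Cdk1 is listed under its older symbol Cdc2a. Aurkb, Ncapg, Mki67 and Kif20a are not analysed here.

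RNA came from the intestine of female C57Bl/6 mice aged 6 to 8 weeks, all fed a gel diet for 5 days before surgery, and was hybridised to 25 Illumina bead arrays. Loops were made by resecting 2.5 cm of ileum, 3 cm upstream of the ileocecal valve, with anastomosis to the ileum, and tissue was collected 5 weeks later. As their names say, self-filling loops collect content, which stands in them, and self-emptying loops drain. The groups were IL10 knockout self-filling loops (n = 3) and self-emptying loops (n = 3), TLR4 knockout self-filling loops (n = 3) and self-emptying loops (n = 3), wild type self-filling loops (n = 3) and self-emptying loops (n = 4), and wild type sham-operated cecum (n = 3) and ileum (n = 3). Sham surgery opened the abdomen only, so the loops carry the resection that the sham tissues lack, and no knockout had a sham group. IL10 is a cytokine that restrains inflammation and TLR4 the receptor for bacterial lipopolysaccharide. The labels do not name separate animals, so each p-value measures only how far these samples spread, and that spread may be technical.

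Levels are normalised signals on a log2 scale, and changes are differences of log2 group means. On each array, 47.2 to 53.0% of probes were above background. The Tlr4 probe lay between 4.24 and 4.78 on the 6 TLR4 knockout arrays, where 1 array detected it, and between 4.86 and 5.56 on the 7 wild type loop arrays, all of which did. The Il10 probe gave 5.72 to 7.72 on the 6 arrays with the IL10 knockout label, above background on each. It was at background on every wild type array. Wild type arrays thus had no signal that a knockout could lose, so the probe cannot check that label. Whether it lies in the deleted part is unknown here. IL10 knockout therefore stands below for arrays with that label. Array codes ran in a series MW, taken here in runs of 8, and a series MX that held the TLR4 knockout arrays and no others, so TLR4 genotype and array series cannot be told apart. In MW codes 9 to 16, wild type self-emptying replicates 2 and 3 had a ratio of bright signal (the 95th percentile) to median signal of 9.5 and 10.2, against 15.3 and 13.9985 for replicates 1 and 4 of that group, and wild type self-filling loops had 15.3 to 16.3.

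Small intestinal epithelium renews itself from dividing cells in the crypts, and most of the genes described here are transcribed in waves that follow the cycle. Genes for replication are switched on by E2F factors as cells pass from G1 into S phase. Genes for mitosis follow later, through the MuvB complex, B-Myb and Foxm1. The level of these genes in whole tissue is therefore widely used as a measure of how much of it is cycling. In bulk RNA such as this, fewer cycling cells and less of these transcripts per cell cannot be told apart.

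Of the 30 genes tested, 29 were detected on all 25 arrays. Ube2c, the ubiquitin-conjugating enzyme of the anaphase-promoting complex, was detected on 3 arrays only and lay between 4.22 and 4.92 throughout. The probes of Gmnn, the inhibitor of licensing, of the cyclins Ccna2 and Ccnb2 and of the checkpoint kinase Bub1 were detected on 0 arrays. Averaged over the 30 tested genes, the level was 7.58 to 8.35 in IL10 knockout self-filling loops, 7.97 to 8.41 in IL10 knockout self-emptying loops, 7.84 to 8.47 in TLR4 knockout self-filling loops and 7.57 to 7.85 in TLR4 knockout self-emptying loops. It was 7.96 to 8.26 in wild type self-filling loops, 7.42 to 7.78 in wild type self-emptying loops, 7.18 to 7.65 in sham cecum and 7.31 to 7.66 in sham ileum. Wild type self-filling loops thus lay above both wild type self-emptying loops and sham ileum on every array. The IL10 knockout self-emptying loops had the highest group mean for 17 of the 30 genes, and sham cecum the lowest for 19. Between the highest and the lowest group, a gene's mean differed by 0.41 to 1.84, with a median of 0.97.

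**Figure D1:**
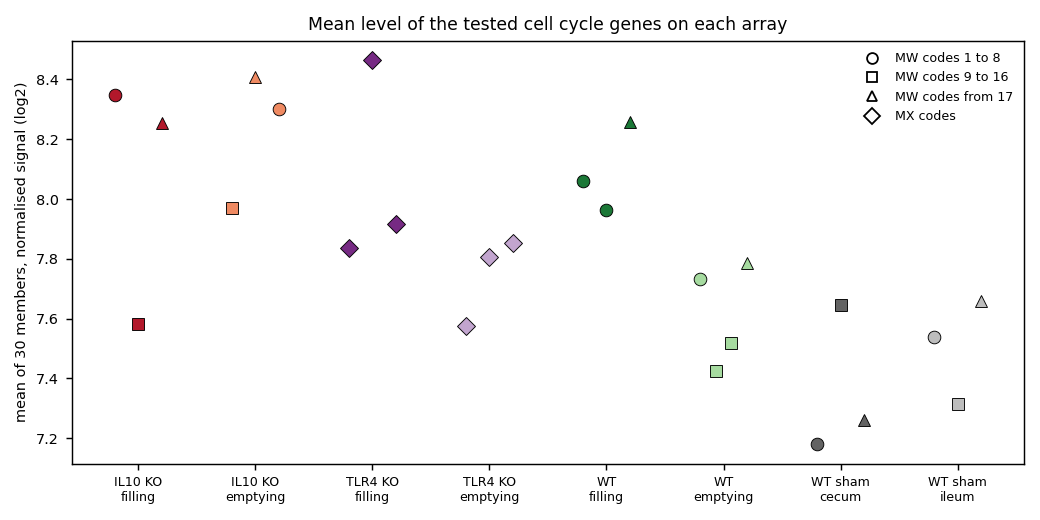
Mean normalised signal (log2, y axis) of the 30 tested cell cycle genes on each of the 25 arrays, by group (x axis, colours), with the symbol giving the run of array codes. Wild type self-filling arrays lie at 7.96 to 8.26, above all wild type self-emptying arrays at 7.42 to 7.78.

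Within a group, 1 array was often high or low for most of the genes at once. TLR4 knockout self-filling replicate 2 was the highest array of its group for 30 of 30 genes. IL10 knockout self-filling replicate 2 was the lowest of its group for 28 of 30, and its ratio of bright to median signal was 11.6, against 15.3 for replicate 1. Sham ileum replicate 2 was the lowest for 24 of 30, TLR4 knockout self-emptying replicate 1 for 22, IL10 knockout self-emptying replicate 1 for 21 and wild type self-emptying replicate 2 for 20. That IL10 knockout array had the lowest ratio of bright to median signal of all 25 arrays, 9.36, against 15.0 and 13.6 for replicates 2 and 3 of its group. The part of signal quality in these shifts was not tested.

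The first question was whether standing content goes with a change in cell cycle genes. In wild type loops 4 of the 30 tested passed, a count that fell to 0 in several alternative fits given below. Rrm2, Plk1, Cenpa and Aurka rose in self-filling against self-emptying loops, 0 of the 30 fell, and 29 of 30 differences lay above 0. The median difference was 0.46, against 0.02 over all genes tested. In this comparison 11.5% of all genes passed an adjusted p of 0.05 (limma with Benjamini-Hochberg adjustment), 5.94% upward and 5.59% downward, set beside 13.3% of the tested cell cycle genes. All self-filling arrays lay above all self-emptying arrays for 17 of the 30, and for 13.9% of all genes.

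Rrm2 encodes the small subunit of ribonucleotide reductase, which makes deoxyribonucleotides for replication and is produced mainly in S phase. Its level was 7.45, 6.87 and 6.60 in wild type self-filling loops, against 5.89, 5.96, 5.43 and 6.04 in wild type self-emptying loops. The groups did not overlap, and self-filling replicate 1 was the highest. The difference was 1.14 ± 0.30 (SE, 2.21-fold, limma adjusted p = 0.0198), and a second Rrm2 probe gave 0.83. Sham ileum lay between the loops, at 6.52, 6.24 and 6.32, and sham cecum at 6.03, 6.83 and 5.96. In the knockouts, Rrm2 was at 7.41, 6.51 and 7.35 in IL10 knockout self-filling loops, against 6.07, 7.16 and 7.02 in self-emptying loops, which overlapped. It was at 6.10, 7.24 and 6.45 in TLR4 knockout self-filling loops, against 5.96, 5.93 and 6.08 in self-emptying loops, which did not overlap.

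Plk1 is the polo-like kinase that drives entry into mitosis and spindle assembly. Its level was 8.73, 8.84 and 9.23 in wild type self-filling loops, against 8.20, 7.88, 8.02 and 8.25 in wild type self-emptying loops, a difference of 0.85 ± 0.24 (SE, limma adjusted p = 0.0301). Every self-filling array was higher than every self-emptying one. Sham ileum, at 8.00, 7.75 and 8.32, overlapped the wild type self-emptying loops, and sham cecum lay at 7.35, 7.99 and 7.66. Plk1 was at 9.60, 8.48 and 9.24 in IL10 knockout self-filling loops, against 8.85, 9.27 and 9.27 in self-emptying loops. It was at 8.51, 9.58 and 8.96 in TLR4 knockout self-filling loops, against 8.38, 8.34 and 8.58 in self-emptying loops. Both knockout pairs overlapped.

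Aurka, the Aurora kinase of centrosome maturation and spindle poles, was at 8.56, 8.53 and 8.84 in wild type self-filling loops, against 8.10, 7.44, 7.90 and 8.17 in wild type self-emptying loops. The groups were separate, and the difference was 0.74 ± 0.23 (SE, limma adjusted p = 0.0428). In IL10 knockout loops all 3 self-filling arrays, at 8.84, 8.08 and 8.70, lay below the self-emptying arrays, at 9.07, 8.9997 and 8.95, without passing the test. TLR4 knockout loops gave 8.33, 9.34 and 8.64 when self-filling, against 7.86, 8.14 and 8.40 when self-emptying. Sham cecum had the lowest group mean of Aurka, with arrays at 6.93, 7.56 and 7.39, against 7.88, 7.50 and 8.05 in sham ileum.

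Cenpa, the histone H3 variant that marks centromeres, was at 10.84, 11.17 and 11.31 in wild type self-filling loops, against 10.60, 10.03, 10.34 and 10.44 in wild type self-emptying loops. These did not overlap either, and the difference was 0.75 ± 0.23 (SE, limma adjusted p = 0.0361). IL10 knockout loops had 11.63, 10.70 and 11.07 when self-filling and 11.21, 11.20 and 11.32 when self-emptying, and TLR4 knockout loops had 10.83, 11.71 and 10.98 when self-filling and 10.31, 11.00 and 10.92 when self-emptying. Sham cecum was at 9.35, 9.84 and 9.72, below every other array of the series for Cenpa, and sham ileum at 10.01, 10.10 and 10.41.

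**Figure D2:**
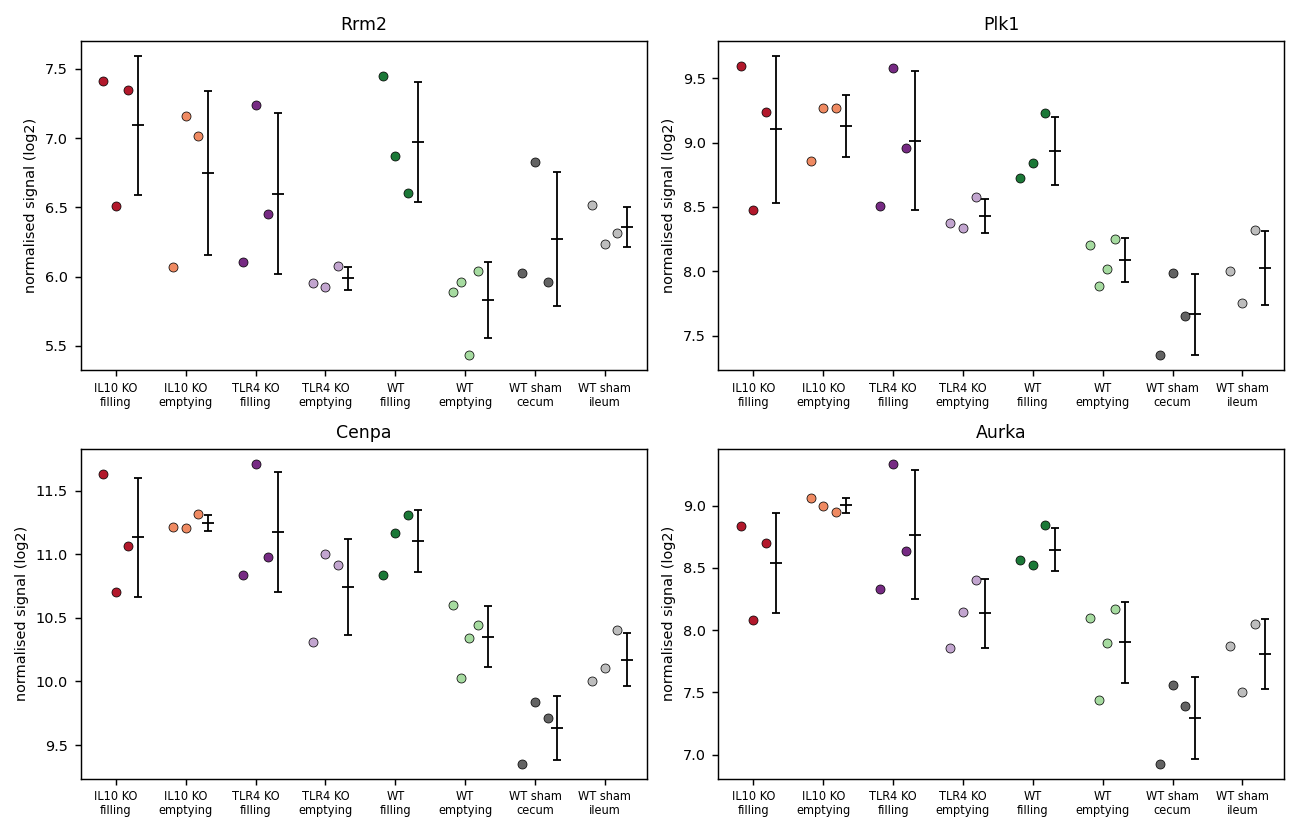
Normalised signal (log2, y axis) of Rrm2, Plk1, Cenpa and Aurka on every array of the 8 groups (x axis), with group mean and SD as black bars. Wild type self-filling arrays lie above wild type self-emptying arrays for all 4 genes, and the knockout pairs overlap except for Rrm2 in TLR4 and Aurka in IL10 knockout loops.

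Since these 4 genes are transcribed at different times of the cycle, their promoters are shown to compare the elements they carry. Each is 250 bases before to 50 after the start of the gene, from RefSeq on GRCm38.p6, on the gene's own strand, with capitals for the cell cycle genes homology region (CHR, TTTGAA) that MuvB complexes bind and for the CCAAT box that NF-Y binds, both searched on both strands and free of overlap with each other here.
Plk1 (chr7:122159185-122159484, plus strand): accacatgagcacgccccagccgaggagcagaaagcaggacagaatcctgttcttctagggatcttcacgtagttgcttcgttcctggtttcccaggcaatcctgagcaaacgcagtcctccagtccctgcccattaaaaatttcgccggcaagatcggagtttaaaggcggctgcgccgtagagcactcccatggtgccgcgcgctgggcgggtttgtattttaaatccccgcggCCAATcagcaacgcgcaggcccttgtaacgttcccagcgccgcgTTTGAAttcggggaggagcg
Aurka (chr2:172370521-172370820, minus strand): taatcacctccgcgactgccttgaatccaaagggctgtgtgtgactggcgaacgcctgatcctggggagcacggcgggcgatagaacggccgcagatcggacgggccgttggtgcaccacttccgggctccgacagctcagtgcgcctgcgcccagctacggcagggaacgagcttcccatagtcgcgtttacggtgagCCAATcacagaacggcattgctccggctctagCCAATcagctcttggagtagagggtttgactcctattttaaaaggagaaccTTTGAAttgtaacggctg
Cenpa (chr5:30666636-30666935, plus strand): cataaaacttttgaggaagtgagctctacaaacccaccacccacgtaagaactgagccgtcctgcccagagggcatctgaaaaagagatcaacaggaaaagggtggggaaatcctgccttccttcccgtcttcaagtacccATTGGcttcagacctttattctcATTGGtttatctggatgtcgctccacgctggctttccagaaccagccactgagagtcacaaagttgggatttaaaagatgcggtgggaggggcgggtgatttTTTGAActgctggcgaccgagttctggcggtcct
Rrm2 (chr12:24708004-24708303, plus strand): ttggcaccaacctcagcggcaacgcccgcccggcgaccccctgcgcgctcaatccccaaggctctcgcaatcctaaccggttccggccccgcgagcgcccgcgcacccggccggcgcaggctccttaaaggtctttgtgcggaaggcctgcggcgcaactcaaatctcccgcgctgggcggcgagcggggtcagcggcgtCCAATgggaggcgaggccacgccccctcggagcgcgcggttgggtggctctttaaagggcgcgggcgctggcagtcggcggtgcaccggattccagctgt

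The 3 mitotic genes Plk1, Aurka and Cenpa each carry 1 CHR just past the start, beginning at positions 31, 33 and 17 counted from the start as 1, and at least 1 CCAAT box upstream of it, which Cenpa has on the other strand. The Rrm2 window holds 1 CCAAT box, 50 bases before the start, and no match to TTTGAA. Of the 38 genes, 31 had a promoter in the table, and Gmnn, Mcm4, Ccna2, Aurkb, Foxm1, Tpx2 and Kif20a did not. Of these 31 genes, 15 (48.4%) held TTTGAA in at least 1 promoter window, against 20.2% of 27025 genes. Of the 27 that were also tested on the arrays, 12 (44.4%) did. The CCAAT box was in 24 of 31 (77.4%), against 41.1% of all. An E2F site, searched as TTTCCCGC or TTTGGCGC, was in 7 of 31 (22.6%), against 1.8% of all, and in none of the 4 windows printed. These are matches of letters, a description of the windows and not of binding.

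By role, the other members gave these values in the wild type loops. Among mitotic cyclins, kinases and their transcription factor, all 5 genes tested lay above 0 with a median of 0.74. Cdk1, the kinase that triggers mitosis, was at 9.09, 8.99 and 9.39 in self-filling loops, against 8.77, 8.15, 8.54 and 8.73 in self-emptying loops, and did not pass. Among chromosome and kinetochore genes all 6 lay above 0, with a median of 0.61, and among spindle genes all 5, with a median of 0.38. Prc1, which bundles the microtubules of the central spindle, was at 9.89, 10.03 and 10.45 in self-filling loops, against 9.71, 9.45, 9.48 and 9.62 in self-emptying loops (limma adjusted p = 0.0705).

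The 9 tested genes of the G1 to S transition had a median of 0.33, and 0 passed. Mcm4, a subunit of the replicative helicase, was at 10.38, 10.01 and 10.39 in self-filling loops, against 10.23, 10.005, 10.09 and 10.31 in self-emptying loops, which overlapped. The licensing factor Cdt1, with a difference of -0.17, was the only one of the 30 genes below 0. In nucleotide supply, all 5 genes lay above 0 with a median of 0.52. Tyms, the thymidylate synthase, was at 8.81, 8.97 and 9.05 in self-filling loops, against 8.55, 8.37, 8.42 and 8.71 in self-emptying loops. A second Tyms probe gave 0.87 and passed (limma adjusted p over probes = 0.0343), whereas the probe with the highest signal did not.

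Of 105 further cell cycle genes, 76 were tested, of which 7 rose and 1 fell. The largest changes were those of Cdkn1c, the CDK inhibitor p57, which fell by 1.05 ± 0.31 (SE), Cep55, the abscission scaffold (0.92 ± 0.28), Dbf4, the activator of the origin-firing kinase Cdc7 (0.89 ± 0.23), and Spc24 of the kinetochore (0.74 ± 0.15). In the same comparison markers of other cells moved. Of 5 T cell markers 3 fell, with a mean level of 5.09 to 5.65 in self-filling and 6.23 to 6.88 in self-emptying loops. Of 4 adipocyte markers 2 fell, with 4.92 to 5.60 in self-filling and 6.36 to 9.59 in self-emptying loops. Of 6 pan-epithelial markers 2 rose, with 11.85 to 12.12 in self-filling and 11.72 to 11.84 in self-emptying loops. Of 6 enterocyte markers 2 fell, with 11.09 to 11.50 in self-filling and 11.69 to 12.08 in self-emptying loops, without overlap. Of 4 endothelial markers 2 fell, with 4.72 to 5.06 in self-filling and 5.27 to 5.89 in self-emptying loops. Macrophage markers lay at 5.73 to 6.67 in self-filling and 6.50 to 8.15 in self-emptying loops, with 7 of 7 below 0 and 0 passing. Neutrophil markers had a group mean of 5.74 in self-filling and 4.67 in self-emptying loops, and the arrays did not overlap. Of these 3 markers 2 lay above 0 and 0 passed. Crypt stem cell markers stood at 7.72 to 7.74 in self-filling and 7.68 to 7.75 in self-emptying loops, with 1 of 10 risen and 1 fallen. The part of these cells in the result was not tested.

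The number of calls changed with the arrays left out. When wild type self-emptying replicates 2 and 3 (codes 9 to 16) were both dropped, 0 of 30 genes passed. The median was then 0.35, with Rrm2 at 1.01, Plk1 at 0.71, Cenpa at 0.58 and Aurka at 0.51. Standard errors of these 4 genes were wider than in the main fit, at 0.36, 0.30, 0.27 and 0.27. The drop to 0 therefore cannot tell a part of these 2 arrays from the smaller group. Leaving out self-emptying replicate 3 alone also gave 0 calls, leaving out self-emptying replicate 2 or self-filling replicate 1 or 3 gave 1, and leaving out self-filling replicate 2 gave 2. With the runs of codes as a block the count was 0 and the median 0.42, and with the signal ratio added as a covariate 0 and 0.20. Within MW codes 1 to 8, 27 of 30 genes lay higher in self-filling loops (2 arrays) than in the self-emptying loop (1 array), with a median of 0.27. Among codes from 17 on the count was again 27 of 30, with a median of 0.53 (1 array each), and codes 9 to 16 held no wild type self-filling array.

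In IL10 knockout loops, 0 of the 30 cell cycle genes passed between self-filling and self-emptying loops (limma), while 4.12% of all genes did, 1.92% upward and 2.2% downward, and 2 of the 30 had an unadjusted p under 0.05, against 20.5% of all genes. The median was -0.09, against -0.02 over all genes, and 25 of 30 differences lay below 0. The 2 genes with the smallest p were Top2a, the topoisomerase that untangles chromosomes, and Prc1. Top2a was at 9.02, 8.93 and 9.71 in self-filling loops, against 9.81, 10.07 and 9.86 in self-emptying loops, a difference of -0.69 ± 0.30 (SE, adjusted p = 0.189). Prc1 was at 10.30, 9.52 and 10.42 in self-filling loops, against 10.48, 10.67 and 10.52 in self-emptying loops (-0.48 ± 0.21, adjusted p = 0.203). Neither pair overlapped, as for 6 of the 30 genes, all lower in self-filling loops, against 11.8% of all genes. Leaving out self-filling replicate 2 turned the median to 0.14. Within runs of codes it was 0.15 in codes 1 to 8, -0.35 in codes 9 to 16 and -0.13 from code 17 on, with 1 array a group in each.

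Among the 76 further genes tested in IL10 knockout loops, 0 rose and 6 fell, among them Kif15, a spindle motor (-0.92 ± 0.24, SE), the D-type cyclins Ccnd1 (-0.83 ± 0.20) and Ccnd2 (-0.70 ± 0.20), and Rfc5 of the clamp loader (-0.78 ± 0.14). The number passing was 12 without self-filling replicate 3, of which 11 fell, and 1 or 2 without any one of the other 5 arrays. Over these 6 fits Rfc5 passed in 6, Ccnd1 in 3, Kif15 in 1 and Ccnd2 in 0. Of 3 neutrophil markers 2 rose, with a mean level of 8.79 to 10.14 in self-filling and 6.61 to 8.88 in self-emptying loops, and of 7 macrophage markers 1 rose. Crypt stem cell markers lay at 7.15 to 7.61 in self-filling and 7.63 to 7.85 in self-emptying loops, where 2 of 10 fell. Their part in the result was not tested.

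In TLR4 knockout loops, 0 of the 30 genes passed (limma), while 0.0802% of all genes did, 0.0356% upward and 0.0445% downward, and 4 of the 30 had an unadjusted p under 0.05, against 9.03% of all genes. The median was 0.38, against 0.02 over all genes, and 29 of 30 differences lay above 0, but TLR4 knockout self-filling replicate 2 was the highest array for every gene. Prc1 was at 10.12, 10.71 and 10.35 in self-filling loops, against 9.60, 10.05 and 9.84 in self-emptying loops, which did not overlap (0.57 ± 0.21, SE, adjusted p = 0.428). Aurka differed by 0.63 ± 0.25 (SE, adjusted p = 0.46). Among further genes 0 passed, and 11 had an unadjusted p under 0.05. Self-filling replicate 2 had enterocyte markers at a mean level of 9.74, against 11.37 and 11.35 in replicates 1 and 3. Its neutrophil markers were at 7.65, against 4.69 and 5.52, and its T cell markers at 4.98, against 6.54 and 5.64. Adipocyte markers lay at 6.12 to 7.08 in self-filling and 7.72 to 9.38 in self-emptying loops, and crypt stem cell markers at 7.62 to 7.73 and 7.48 to 7.85. The part of these cells was not tested.

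Averaged over the 3 genotypes, Rrm2 rose by 0.70 ± 0.18 (SE, limma adjusted p = 0.0142) and Plk1 by 0.47 ± 0.15 (adjusted p = 0.0389) in self-filling loops, and 0 genes fell. The median was 0.23, against 0.01 over all genes, of which 13.4% passed, 6.39% upward and 7.01% downward. Rrm2 passed whichever single array was left out, with 0.58 to 0.79, and Plk1 in 9 of 19 such fits. The mean of Plk1 was not higher in self-filling (9.10) than in self-emptying loops (9.13) of IL10 knockout. It was 9.02 against 8.43 in TLR4 knockout and 8.93 against 8.09 in wild type. Without IL10 knockout self-filling replicate 2, 7 genes passed. With the signal ratio in the model 0 passed. Among the further genes, Dbf4 (0.53 ± 0.14), Dlgap5 of the spindle (0.47 ± 0.12) and the mitotic phosphatase Cdc25c (0.41 ± 0.12) rose, and Lmnb1 of the nuclear lamina fell (-0.50 ± 0.16). In the same mean, 2 of 3 neutrophil markers rose (median 1.85), and 2 of 4 adipocyte, 2 of 6 enterocyte, 1 of 6 pan-epithelial, 1 of 4 endothelial and 1 of 5 T cell markers fell. Of 10 crypt stem cell markers 1 rose and 2 fell. The part of these cells was not tested.

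Whether the genotypes respond differently was tested as an interaction. For IL10 knockout against wild type, 0 of 30 cell cycle genes passed (limma), while 2.36% of all genes did, 1.02% upward and 1.34% downward, and 13 of the 30 had an unadjusted p under 0.05, against 19.6% of all genes. The median difference of differences was -0.70, against -0.03 over all genes, and 29 of 30 lay below 0. Prc1 (-1.03 ± 0.29, SE, adjusted p = 0.0566) and Aurka (-1.21 ± 0.34, adjusted p = 0.0575) had the smallest p. In the list of further genes 6 passed. Cdkn1c was higher by 2.17 ± 0.45 and Kif15 (-1.38 ± 0.32), Ccnd1 (-1.29 ± 0.27) and Aspm of the spindle pole (-1.20 ± 0.29) were lower in the IL10 knockout response than in the wild type one. None of these 4 passed without the wild type self-emptying arrays of codes 9 to 16. For TLR4 knockout against wild type, 0 of 30 genes passed, 0 had an unadjusted p under 0.05 and 0.0% of all genes passed. The median was -0.15, and the 2 smallest p were those of Ccne1, the cyclin E that opens S phase (-0.45 ± 0.28, SE), and Rrm2 (-0.53 ± 0.44), whose standard errors allow differences of either sign.

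**Figure D3:**
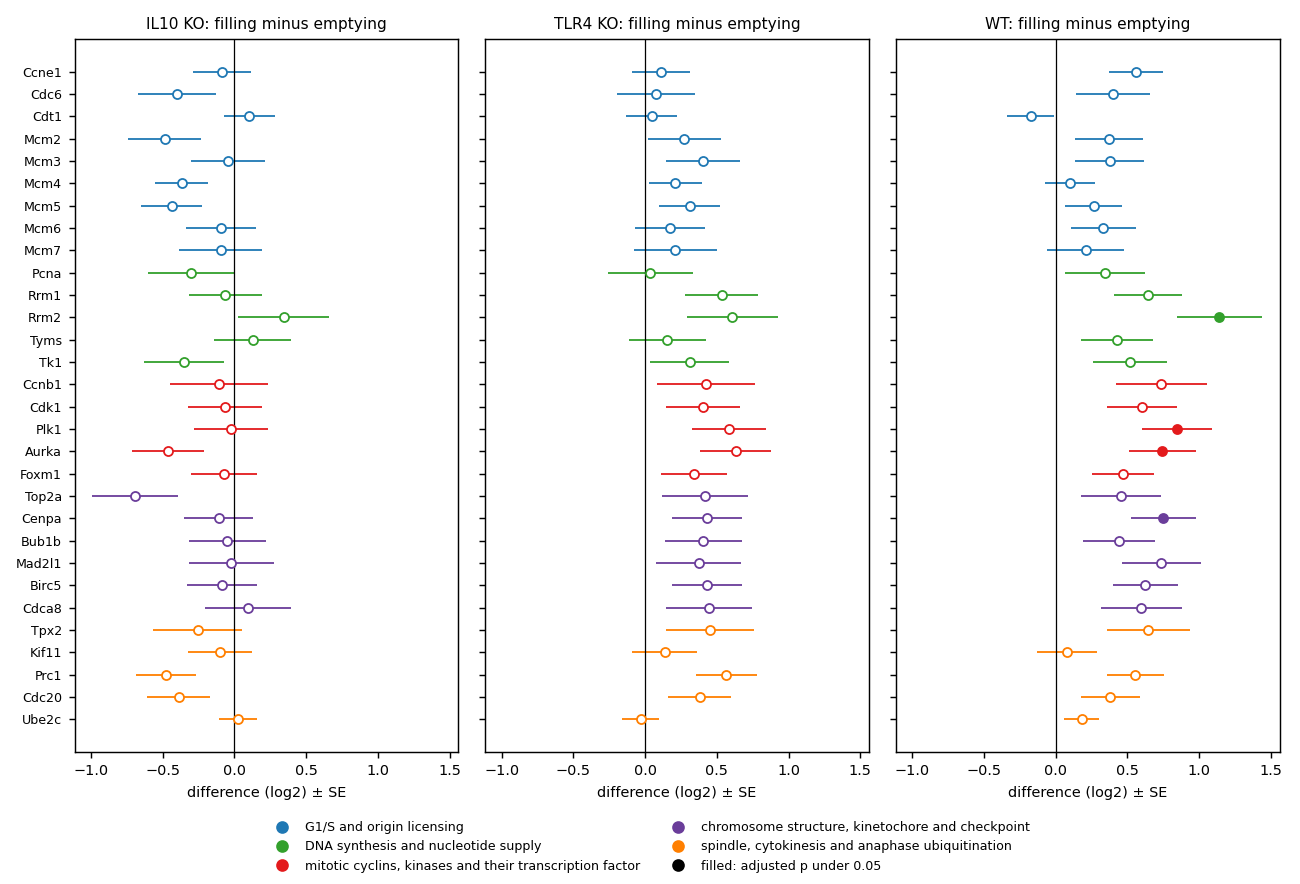
Difference between self-filling and self-emptying loops (log2, x axis, with SE) for the 30 tested cell cycle genes (y axis), coloured by role, in IL10 knockout, TLR4 knockout and wild type loops, with filled points for an adjusted p under 0.05. In wild type loops Rrm2, Plk1, Aurka and Cenpa passed and 29 genes lay above 0, in TLR4 knockout loops 29 lay above 0 and 0 passed, and in IL10 knockout loops 25 lay below 0 and 0 passed.

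Wild type self-filling loops were next set against sham ileum. Cdc6, Cenpa, Plk1, Aurka, Ccne1 and Prc1 rose, Ube2c also passed although its signal was detected on 0 arrays of either group, 0 fell, and all 30 differences lay above 0. The median was 0.58, against 0.04 over all genes. In this comparison 19.7% of all genes passed, 10.5% upward, against 23.3% of the 30. The self-filling arrays all lay above the ileum arrays for 23 of the 30, and for 23.4% of all genes. This comparison shares the self-filling arrays with the one between the loops, so its values are not a second measurement of them.

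Cdc6, the loader of the helicase onto origins, was at 6.91, 6.07 and 6.65 in self-filling loops, against 5.81, 5.34 and 5.39 in sham ileum, a difference of 1.03 ± 0.27 (SE, limma adjusted p = 0.0132). Ccne1 was at 6.19, 5.52 and 6.15 in self-filling loops, against 5.28, 5.09 and 5.09 in sham ileum (0.80 ± 0.20, adjusted p = 0.0102). In both genes the arrays were separate and self-filling replicate 2 lay lowest of its group. The mitotic genes passed with 0.93 ± 0.24 for Cenpa (adjusted p = 0.0119), 0.91 ± 0.26 for Plk1 (adjusted p = 0.0203), 0.84 ± 0.25 for Aurka (adjusted p = 0.0234) and 0.65 ± 0.21 for Prc1 (adjusted p = 0.0352). Prc1 in sham ileum was at 9.37, 9.35 and 9.69. Cdk1 in sham ileum was at 8.59, 8.38 and 8.71, Tyms at 8.58, 8.23 and 8.49, and Mcm4 at 9.93, 9.71 and 9.94, each below the self-filling arrays given above.

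Of the 76 further genes, 18 rose and 2 fell. Cdkn1c fell by 1.46 ± 0.33 (SE), and Dbf4 (0.95 ± 0.25), Rfc4 of the clamp loader (0.94 ± 0.21) and Chaf1b of the chromatin assembly factor (0.91 ± 0.23) rose. Of 5 T cell markers 4 fell, with 5.09 to 5.65 in self-filling loops and 6.15 to 7.04 in sham ileum, of 7 macrophage markers 5 fell, with 5.73 to 6.67 in self-filling loops and 7.24 to 8.30 in sham ileum, and of 4 adipocyte markers 3 fell. Of 6 enterocyte markers 2 fell and 5 lay below 0 (median -0.75), with 11.09 to 11.50 in self-filling loops and 11.78 to 11.92 in sham ileum. Of 7 smooth muscle markers 2 fell, and 1 of 4 endothelial and 1 of 6 fibroblast markers fell. Of 10 crypt stem cell markers 1 rose, and of 6 pan-epithelial markers 1 rose and 1 fell. Neutrophil markers had a group mean of 5.74 in self-filling loops and 4.51 in sham ileum, without overlap of arrays. All 3 of them lay above 0 and 0 passed. Their part was not tested. Without self-filling replicate 3, 0 of the 30 genes passed, without sham ileum replicate 2 there were 2, and 0 with the signal ratio in the model. Within codes 1 to 8, 29 of 30 genes lay higher in self-filling loops (2 arrays) than in ileum (1 array), with a median of 0.49, and from code 17 on 30 of 30, with a median of 0.58 (1 array each).

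Wild type self-emptying loops were set against sham ileum to see the surgery apart from stasis, and 0 of the 30 genes passed (limma). Of all genes 0.00891% passed, and 3 of the 30 had an unadjusted p under 0.05, against 7.86% of all genes. The median was 0.10, against 0.01 over all genes. Cdt1 (0.41 ± 0.17, SE, adjusted p = 0.544) and Cdc6 (0.63 ± 0.26, adjusted p = 0.544) had the smallest p. Cdc6 was at 6.23, 6.00, 5.91 and 6.41 in self-emptying loops, above all 3 ileum arrays. Rrm2 differed by -0.53 ± 0.30 (SE, adjusted p = 0.717), with all 4 self-emptying arrays below the ileum. By role, all 9 genes of origin licensing and G1 to S lay above 0 with a median of 0.26, while the 5 mitotic cyclin and kinase genes had a median of -0.01. When both self-emptying arrays of codes 9 to 16 were dropped the count was again 0 and the median 0.24. Among the further genes 0 passed, and 5 had an unadjusted p under 0.05.

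Sham cecum differed from sham ileum in 2 of the 30 genes, in opposite directions. Tyms rose, at 9.12, 9.51 and 9.22 in cecum, against 8.58, 8.23 and 8.49 in ileum, a difference of 0.85 ± 0.27 (SE, limma adjusted p = 0.021), and a second probe gave 0.77. Cdc20, the activator of the anaphase-promoting complex, fell, at 8.12, 8.73 and 8.46 in cecum, against 8.88, 9.08 and 9.40 in ileum (-0.68 ± 0.22, adjusted p = 0.0235). Of all genes 27.8% passed, against 6.67% of the 30. The median was -0.12, against 0.03 over all genes, and all 5 mitotic cyclin and kinase genes, all 6 chromosome genes and all 5 spindle genes lay below 0, against 4 of 5 nucleotide genes above it. Plk1, Aurka and Cenpa, given above, were not past the threshold. The number passing was 1 without cecum replicate 1 or 3 or ileum replicate 2 or 3.

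The remaining array values in sham cecum were 8.14, 8.82 and 8.44 for Cdk1, 8.99, 9.56 and 9.17 for Prc1 and 9.82, 9.92 and 9.48 for Mcm4. Replicate 2 lay highest in cecum in all 3, as it did for 21 of 30 genes. From the further genes 2 rose and 11 fell, led by the cyclin Ccne2 (-1.32 ± 0.41, SE), the transcription factor E2f2 (-1.25 ± 0.22), the replication factor Mcm10 (-1.07 ± 0.22) and Kif23 of cytokinesis (-1.03 ± 0.19). The tissues differ in their cells. Enterocyte markers stood at 5.95 to 6.23 in cecum and 11.78 to 11.92 in ileum, where 6 of 6 fell in cecum. Of 10 crypt stem cell markers 3 fell and 1 rose, with a median of -0.31, and their mean level was 6.69 to 6.81 in cecum and 7.58 to 7.76 in ileum. The lowest single difference among them was that of Olfm4, at a mean of 4.45 in cecum and 11.30 in ileum (-6.85), named after its values were seen. Of 5 T cell markers 3 fell in cecum. Their part was not tested. The direction of the median turned with the runs of codes, at -0.45 in codes 1 to 8, 0.29 in codes 9 to 16 and -0.45 from code 17 on, with 1 array a group in each, and 0.09 with the signal ratio in the model.

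Genotype was compared within each kind of loop. In self-emptying loops, 9 of the 30 cell cycle genes rose and 0 fell in IL10 knockout against wild type, 28 of 30 lay above 0, and the median was 0.63, against 0.02 over all genes. Of all genes 9.55% passed, 5.24% upward and 4.31% downward, against 30% of the 30. The IL10 knockout arrays all lay above the wild type arrays for 15 of the 30, and for 11.7% of all genes.

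The 9 were 3 of 5 mitotic cyclin and kinase genes, 3 of 6 chromosome genes, 2 of 5 spindle genes and 1 of 5 nucleotide genes, while 0 of 9 genes of G1 to S passed, a difference between roles that was not tested. Aurka, at 9.07, 8.9997 and 8.95 in IL10 knockout against 8.10, 7.44, 7.90 and 8.17 in wild type self-emptying loops, rose by 1.10 ± 0.23 (SE, limma adjusted p = 0.00565). Plk1 rose by 1.04 ± 0.24 (adjusted p = 0.0106) and Top2a by 1.01 ± 0.28 (adjusted p = 0.0277). Prc1 rose by 0.99 ± 0.20 (adjusted p = 0.00386), Cdc20 by 0.96 ± 0.21 (adjusted p = 0.00582) and Rrm1, the large subunit of ribonucleotide reductase, by 0.92 ± 0.24 (adjusted p = 0.0187). Cenpa, Birc5, which is the survivin subunit of the chromosomal passenger complex, and Foxm1, the transcription factor of the mitotic programme, rose by 0.89, 0.79 and 0.72. Cdc20 was at 10.44, 10.14 and 10.26 in IL10 knockout, against 9.51, 9.20, 9.33 and 9.24 in wild type self-emptying loops. Top2a was at 9.81, 10.07 and 9.86 in IL10 knockout, against 8.81, 8.54, 9.17 and 9.11 in wild type. In these genes each knockout array was above each wild type array. With single arrays left out in turn, Aurka, Prc1 and Cdc20 passed in 7 of 7 fits, Plk1 in 6 and Rrm1 in 5. Cenpa passed in 4 of these fits, Birc5 and Top2a in 2 each and Foxm1 in 0.

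Members that did not pass were also described by array. Tyms was at 8.08, 9.25 and 9.18 in IL10 knockout self-emptying loops, against 8.55, 8.37, 8.42 and 8.71 in wild type ones, and Cdk1 at 8.71, 9.42 and 9.30 in IL10 knockout, against 8.77, 8.15, 8.54 and 8.73 in wild type. Both overlapped, with knockout replicate 1 lowest. Mcm4 was at 10.62, 10.48 and 10.77 in IL10 knockout self-emptying loops, against 10.23, 10.005, 10.09 and 10.31 in wild type ones, without overlap and without passing.

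Of the 76 further genes, 26 rose and 0 fell in IL10 knockout self-emptying loops, 14 of them among 28 genes of mitosis. The largest changes were in Kif2c, a microtubule depolymerase (1.08 ± 0.20, SE), Ccnd1 (1.05 ± 0.19), the origin-firing kinase Cdc7 (1.01 ± 0.22) and the chromokinesin Kif4 (1.00 ± 0.25). Beside them, 2 of 3 neutrophil markers rose, with a mean level of 6.61 to 8.88 in IL10 knockout and 4.65 to 4.71 in wild type self-emptying loops. Of 6 pan-epithelial markers 1 fell, with 11.58 to 11.64 in IL10 knockout and 11.72 to 11.84 in wild type, without overlap. Of 6 enterocyte markers 1 fell and 5 lay below 0 (median -0.51), with 10.61 to 11.70 in IL10 knockout and 11.69 to 12.08 in wild type. Crypt stem cell markers lay at 7.63 to 7.85 in IL10 knockout and 7.68 to 7.75 in wild type, with 1 of 10 risen, and T cell markers at 6.51 to 7.12 in IL10 knockout and 6.23 to 6.88 in wild type, with 0 of 5 passing. The part of these cells was not tested.

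Without the 2 wild type self-emptying arrays of codes 9 to 16, 0 of the 30 genes and 4 of the 76 further genes passed, and the median over the 30 was 0.43. The IL10 knockout array of these codes, replicate 1, was kept in that fit. Without IL10 knockout replicate 3, 3 passed, and without wild type replicate 2, 4 passed. With the runs of codes as a block 11 passed, and 13 with the signal ratio in the model. Within runs of codes, the median was 0.60 with 28 of 30 genes higher in IL10 knockout in codes 1 to 8 (1 array each), 0.46 with 26 of 30 in codes 9 to 16 (1 knockout and 2 wild type arrays) and 0.72 with 27 of 30 from code 17 on (1 array each).

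In self-filling loops, 0 of the 30 genes passed between IL10 knockout and wild type (limma), while 12.6% of all genes did, 6.64% downward, and 1 of the 30 had an unadjusted p under 0.05, against 26.1% of all genes. The median was -0.01, against -0.02 over all genes, and within codes 1 to 8 and from code 17 on it was 0.42 and 0.02. Cdc6 (-0.57 ± 0.27, SE, adjusted p = 0.192) and Pcna, the sliding clamp of replication (-0.57 ± 0.30, adjusted p = 0.237), had the smallest p. Plk1, Aurka and Cenpa, whose arrays are given above, overlapped between IL10 knockout and wild type self-filling loops, as did the other tested members. The other array values in IL10 knockout self-filling loops were 9.67, 8.49 and 9.08 for Cdk1, 9.43, 8.24 and 9.23 for Tyms and 10.36, 10.002 and 10.41 for Mcm4, with replicate 2 lowest each time. Of the further genes Cdkn1c rose (1.37 ± 0.33, SE), while Dut, which removes dUTP (-0.76 ± 0.19), and the retinoblastoma gene Rb1 (-0.50 ± 0.16) fell. With single arrays left out in turn, Cdkn1c passed in 6 of 6 fits, Dut in 5 and Rb1 in 1. Of 7 macrophage markers 6 rose, of 5 T cell markers 5, of 3 neutrophil markers 2 and of 4 endothelial markers 1 in the same comparison, while 3 of 6 pan-epithelial, 3 of 10 crypt stem cell and 1 of 6 enterocyte markers fell, and their part was not tested. The 3 comparisons that share these arrays give, for Plk1, 9.10 in IL10 knockout self-filling, 9.13 in IL10 knockout self-emptying, 8.93 in wild type self-filling and 8.09 in wild type self-emptying loops.

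**Figure D4:**
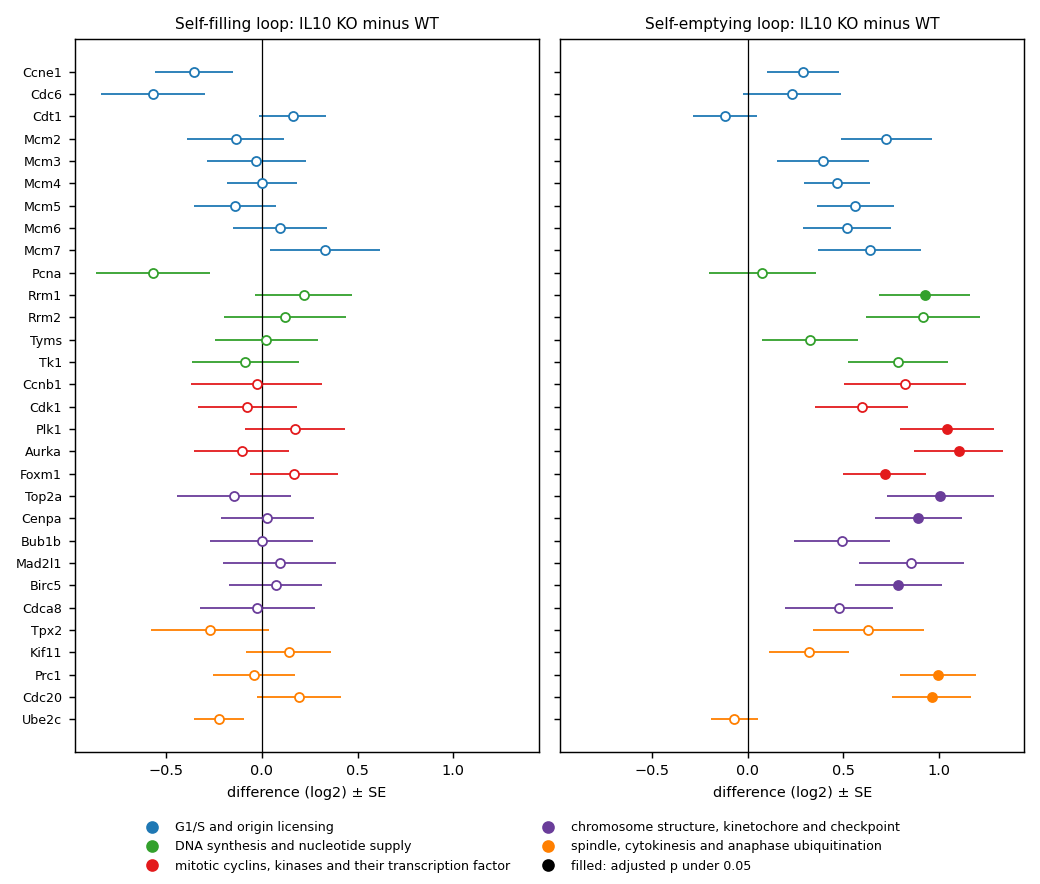
Difference between IL10 knockout and wild type (log2, x axis, with SE) for the 30 tested cell cycle genes (y axis), coloured by role, in self-filling and in self-emptying loops, with filled points for an adjusted p under 0.05. In self-filling loops 0 genes passed around a median of -0.01, and in self-emptying loops 9 rose around a median of 0.63.

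Probes of one gene disagreed by genotype for Mcm6, a helicase subunit. Its brightest probe was at 8.90, 9.46 and 9.29 in IL10 knockout self-emptying loops, against 8.85, 8.49, 8.64 and 8.81 in wild type ones. Another Mcm6 probe (ILMN_1217331) was at 4.32, 4.99 and 4.51 in IL10 knockout self-emptying loops, where 1 of 3 arrays detected it, against 8.20, 8.496, 8.08 and 8.53 in wild type self-emptying loops, where all did. In self-filling loops that probe was at 4.39, 4.29 and 4.42 in IL10 knockout, where 0 of 3 arrays detected it, against 8.74, 8.26 and 8.46 in wild type. One more probe was at 7.85, 8.63 and 8.36 in IL10 knockout self-emptying loops, against 8.32, 8.16, 8.03 and 8.18 in wild type, and the remaining one was detected on 4 arrays in all. The probe at background on IL10 knockout arrays lay at 7.69 to 8.22 in TLR4 knockout loops. Mcm6 and Il10 both lie on chromosome 1 of GRCm38.p6, with 16 protein-coding genes between them, and the position of the probe within Mcm6 is unknown here. The part of sequence near the targeted gene was not tested.

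**Figure D5:**
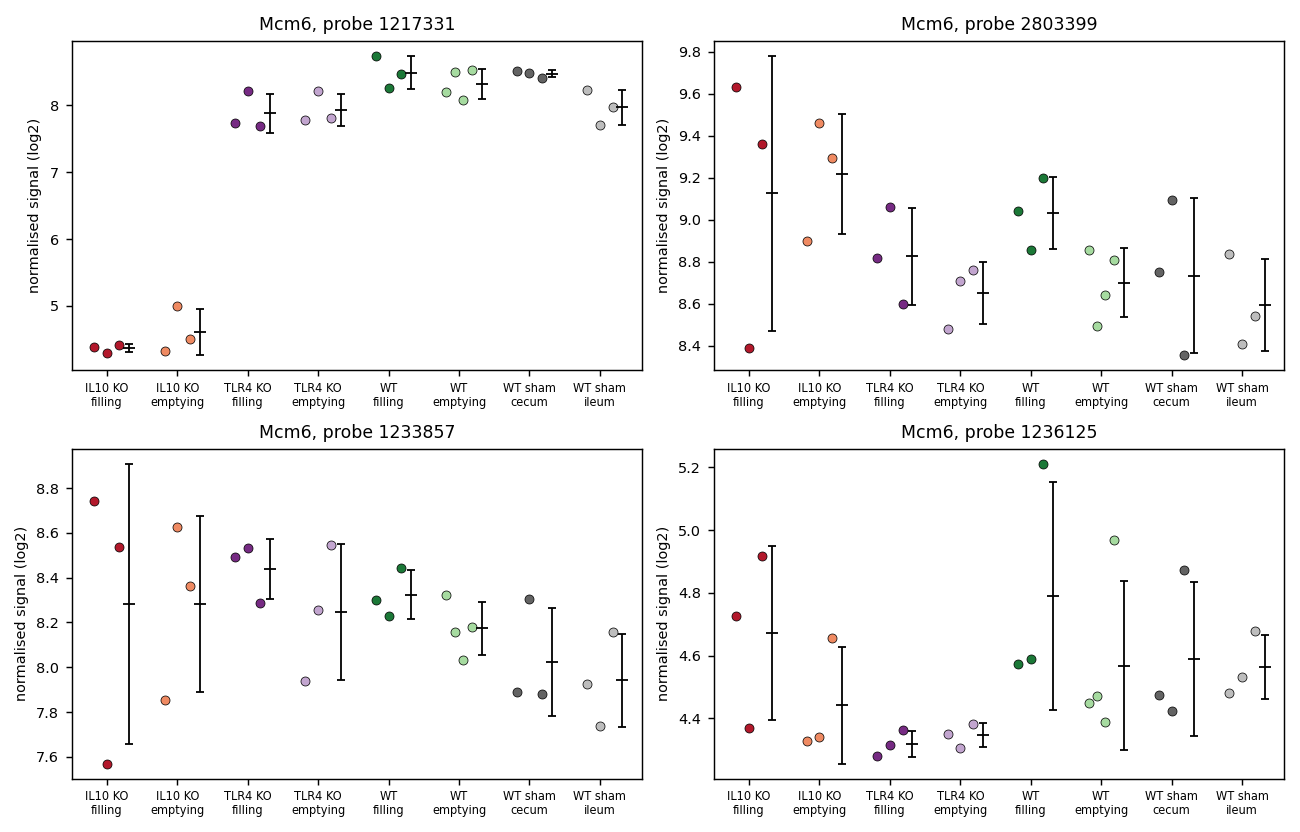
Normalised signal (log2, y axis) of the 4 Mcm6 probes on every array of the 8 groups (x axis), with group mean and SD as black bars. The probe that differs lies at 4.29 to 4.99 on the 6 IL10 knockout arrays and at 7.69 or more on all others, while the brightest probe stays at 8.39 to 9.63 on IL10 knockout arrays.

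For TLR4 knockout, 3 of the 30 genes fell against wild type in self-filling loops and 0 rose, while 11.3% of all genes passed, 4.77% upward and 6.56% downward. The median was 0.06, against 0.03 over all genes. Pcna was at 5.08, 5.22 and 4.85 in TLR4 knockout, against 6.03, 6.19 and 6.18 in wild type self-filling loops, a difference of -1.08 ± 0.30 (SE, limma adjusted p = 0.0227). Ccne1 was at 5.14, 5.48 and 5.20 in TLR4 knockout, against 6.19, 5.52 and 6.15 in wild type self-filling loops (-0.68 ± 0.20, adjusted p = 0.0332). Ube2c also passed, with signals detected on 0 arrays of both groups. The remaining array values in TLR4 knockout self-filling loops were 8.80, 9.50 and 8.97 for Cdk1, 9.08, 9.42 and 9.04 for Tyms and 10.47, 10.87 and 10.18 for Mcm4, in which replicate 2 was highest. Of 7 smooth muscle markers 3 rose in TLR4 knockout, with 10.44 to 11.11, against 8.83 to 10.31 in wild type self-filling loops, and 2 of 4 endothelial markers rose. Of 6 pan-epithelial markers 3 fell and of 10 crypt stem cell markers 1 fell, and the part of these cells was not tested. Without TLR4 knockout replicate 1 or 3, or without wild type replicate 1 or 3, 0 of the 30 passed.

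In self-emptying loops, 0 of the 30 genes passed between TLR4 knockout and wild type (limma), while 5.64% of all genes did, 2.07% upward and 3.57% downward, and 1 of the 30 had an unadjusted p under 0.05, against 20.7% of all genes. Pcna was at 5.01, 4.94 and 5.10 in TLR4 knockout, against 5.91, 5.99, 5.02 and 6.25 in wild type self-emptying loops (-0.78 ± 0.28, SE, adjusted p = 0.109), where wild type replicate 3 alone met the knockout range. Tyms was at 8.86, 8.95 and 9.28 in TLR4 knockout, above the 4 wild type self-emptying arrays (0.52 ± 0.25, adjusted p = 0.246). Cdk1 was at 8.52, 8.65 and 8.89 and Mcm4 at 9.92, 10.56 and 10.41 in TLR4 knockout self-emptying loops, overlapping the wild type arrays. Among the further genes Cdkn2b, the CDK inhibitor p15, fell by 4.08 ± 0.15 (SE) in self-filling and by 4.33 ± 0.14 in self-emptying loops of TLR4 knockout. Cdkn2b and Tlr4 both lie on chromosome 4, with 84 protein-coding genes between them. Cdkn2b was read on its brightest probe only, and the part of sequence near the targeted gene was not tested. TLR4 genotype and the MX series cannot be told apart here either. In self-filling loops Cdkn1c rose (1.34 ± 0.33), and Stmn1, a regulator of microtubules (-0.99 ± 0.27), and Rfc4 (-0.78 ± 0.21) fell. In self-emptying loops Fzr1, which activates the anaphase-promoting complex in G1, rose (0.43 ± 0.09).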

How the data were processed

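The authors deposited intensity values, average bead signals per probe without normalization, each with a detection p-value and a bead count, and processed log2 values. Per the submitters' processing notes limma was used. The scanner software is not stated. Intensities were background-corrected with the detection p-values, quantile-normalised and put on a log2 scale (neqc, offset 16, limma 3.58.1, statmod 1.5.0, R 4.3.3). Probes with a detection p below 0.05 on 3 or more arrays were kept, which left 15318 probes and 11227 genes, each read on its probe with the highest mean, and symbols were updated by Entrez number. A model with a mean per group over 25 arrays was fitted in limma (17 residual and 3.92 prior degrees of freedom), with Benjamini-Hochberg adjustment over all genes, and "rose", "fell" and "passed" mean an adjusted p under 0.05. The ratio of bright to median signal is the 95th percentile over the median of an array. The fits were tested on simulated data. The members, the further genes and the marker lists were chosen with earlier results of these data known. All members are accounted for by role; per comparison the named ones are those past the threshold, largest first, or the 2 with the smallest p, and up to 4 further genes. The 2 wild type self-emptying arrays of codes 9 to 16 were left out as an alternative chosen after seeing the data. The other arrays of these codes were kept in it, among them IL10 knockout self-emptying replicate 1, with a signal ratio of 9.36. Same-numbered arrays were not treated as pairs in the main fit, since they did not correlate throughout under title or description numbers. Python 3.11.15 with pandas 2.3.3, numpy 2.4.6 and matplotlib 3.10.9 made tables and plots.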

Additional observations from a re-analysis of the deposited data

Results flagged for a closer look

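In 4 further cell cycle genes named in the report, the difference between self-filling and self-emptying loops itself differed between IL10 knockout and wild type (limma interaction term). Cdkn1c was at a mean of 7.38 in IL10 knockout self-filling and 6.26 in IL10 knockout self-emptying loops, and at 6.01 in wild type self-filling and 7.06 in wild type self-emptying loops, an interaction of 2.17 (adjusted p = 0.0171). For Kif15 the interaction was -1.38 (adjusted p = 0.0273), for Ccnd1 -1.29 (adjusted p = 0.0195) and for Aspm -1.20 (adjusted p = 0.0326). Without the 2 wild type self-emptying arrays of codes 9 to 16, the adjusted p-values of Cdkn1c, Kif15, Ccnd1 and Aspm were 0.0908, 0.147, 0.0926 and 0.157.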

How the results depend on the processing

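Of 257 recomputed counts of passing genes among the 30, 200 stayed within 1.5 times the reported count. These include comparisons with a reported count of 0, where a recomputed 0 stays by definition. Apart from single omissions, the settings that stayed were 7 of 12 in wild type stasis and 5 of 12 for the mean over genotypes. They were 7 of 11 for wild type self-filling against ileum and 8 of 11 for cecum against ileum. For self-emptying loops of IL10 knockout against wild type 10 of 12 stayed, and for self-filling loops of TLR4 knockout 7 of 10. Of 1239 recomputed single-gene results, 952 stayed past the threshold in the same direction, with 287 no longer past it and 0 reversed. In wild type stasis the count of 4 became 2 without a detection filter, 10 with array weights and 0 with runs as a block. It was also 0 with the signal ratio and 0 without the 2 wild type self-emptying arrays of codes 9 to 16. Single omissions gave 0 to 4. The mean over genotypes (2) gave 1 unfiltered, weighted, with runs as a block, with the replicate block from the titles, with only the groups compared or without the 2 arrays, 0 with the signal ratio, and 1 to 7 on single omissions. Wild type self-filling against ileum (7) gave 17 with weights, 0 with the signal ratio, 3 with the replicate block from the description numbers, 17 with only its groups, and 0 to 7 on single omissions. Cecum against ileum (2) gave 6 with weights, 1 with the signal ratio, 4 with only its groups, and 1 to 3 on single omissions. IL10 knockout against wild type self-emptying loops (9) gave 21 with weights, 0 without the 2 arrays, and 3 to 9 on single omissions. TLR4 knockout against wild type self-filling loops (3) gave 1 and 0 with the replicate block from titles and descriptions, 1 with only its groups, and 0 to 2 on single omissions, and self-emptying loops (0) gave 1 with weights, 2 with the signal ratio and 0 to 1 on single omissions. The IL10 interaction (0) gave 3 with weights and 0 to 1 on single omissions. The other comparisons stayed at 0. The cause of these changes was not tested. Same-numbered arrays did not correlate throughout. The lowest r was -0.24 by title numbers and -0.10 by description numbers, and the highest was 0.39 by either. By description numbers the IL10 knockout loop pairs gave 0.05 to 0.29. The replicate block is therefore an alternative only, and it moved no other count of the 30 beyond 1.5 times. Runs of codes could not be fitted for TLR4 knockout against wild type levels, since all TLR4 knockout arrays are in the MX series. Genes near background, such as Ube2c, have no usable fold.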

Other observations

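Several members had more than 1 detected probe (9 of 34), and their probes were not always on the same side of the threshold. In wild type self-filling against self-emptying loops, a Birc5 probe other than the brightest gave 0.92 (limma adjusted p over probes = 0.022), against 0.62 for the brightest. In IL10 knockout against wild type self-emptying loops, the other 2 Birc5 probes gave 1.14 and 0.93, and the second Rrm2 probe gave 1.01 (adjusted p = 0.00786). In cecum against ileum, the other Cdc20 probes gave -0.66, -0.50 and -1.05, the same direction as the brightest.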
